A study of Homo sapiens with 2 samples.

Results

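Homeobox genes encode transcription factors that bind DNA through a homeodomain. The 55 genes described here lie outside the HOX clusters and were matched by symbol, from a fixed list, among the 57820 genes listed for each library. They comprise TALE factors (MEIS, PBX, PKNOX, TGIF and IRX), SIX-class, paired-like, PAX, MSX and DLX, NK-type, LIM, CDX, CUT, POU and zinc finger homeobox genes. The data are mRNA sequencing of 2 established human lines from liver tumours, with 1 library per line, made to look at the long noncoding RNA PURPL and its transcript variants. Both cultures were unmodified (labelled WT) and were grown in DMEM with fetal bovine serum. HepG2 is labelled hepatocellular carcinoma and SKHEP1 endothelial cells. No treatment is given for either library. Each line has 1 library, so differences have no replicate check and nothing was tested, and all intervals are 95% intervals for counting error only. Reads copied by PCR and not tagged with molecular identifiers need not be separate molecules, so these intervals may be too narrow.

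The libraries held 19940557 expected counts (reads assigned per gene by RSEM) in SKHEP1 and 22477757 in HepG2. A level of 3 counts, used as the floor where a library had fewer, was 0.148 counts-per-million (CPM) for SKHEP1, and 0.135 for HepG2. Of 8 hepatocyte markers, all reached 10 counts in HepG2 and 2 did in SKHEP1, with summed levels of 68583 and 90.5 CPM, and 6 were at 0 in SKHEP1. Of 10 matched endothelial markers, 2 reached 10 counts in SKHEP1 against 3 in HepG2, at summed levels of 1.78 and 8.16 CPM. The highest of them in SKHEP1 was ESAM with 16 counts, CDH5 had 1 and KDR 0. The matched endothelial markers thus had 16 counts or fewer in the library labelled endothelial. PECAM1, also an endothelial marker, was not analysed. Of 6 mesenchymal markers, summing to 7530.3 CPM in SKHEP1 and 48.0 in HepG2, VIM alone gave 7162 CPM in SKHEP1. Within that list COL3A1 (285.3 CPM in SKHEP1, 0 in HepG2) and COL1A1 (47.4 and 0.316) were also higher in SKHEP1. ACTA2 (29.6 CPM in SKHEP1, 39.3 in HepG2) and PDGFRB (5.10 and 8.25) were higher in HepG2, and COL1A2 was under 10 counts in both.

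As background, homeodomain factors set the identity of body regions, organs and cell types in the embryo, and many are expressed in a few tissues only. TALE factors carry a homeodomain with extra residues in a loop. Of them, MEIS, PBX and PKNOX proteins act mostly as partners that bind DNA together with other homeodomain proteins. In the liver, HHEX is needed for the liver bud to form, and ZFHX3 was first described as a repressor of the fetal gene AFP.

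Of the 55 genes, 17 were higher in SKHEP1 by at least 4-fold, 5 were higher in HepG2 by that much, 17 lay within 4-fold and 16 were under 10 counts in both libraries. Among all 57820 genes, 42365 were under 10 counts in both. The 39 genes that reached 10 counts in a library could be compared. Over all 15455 genes that reached this minimum, 16.5% passed 4-fold toward SKHEP1 and 13.0% toward HepG2, against 43.6% and 12.8% of the 39. A gene that reaches the minimum only through the line in which it is high is more likely to pass 4-fold, so these shares describe the 39 genes and not all 55. With a minimum of 50 counts, 7 of 26 genes passed toward SKHEP1 and 5 toward HepG2, beside 13.9% and 11.8% of all genes. The median log2 ratio, HepG2 over SKHEP1, was -0.61 for the 39 genes and -0.03 over all genes compared, and with a minimum of 50 counts it was 0.13 for the 26 genes left, so the median has no stable direction.

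The genes higher in SKHEP1 were mostly low. Their median was 36 counts in SKHEP1, 12 of the 17 were under 100 counts there, and 9 were at 0 in HepG2. The 5 genes higher in HepG2 had a median of 188 counts in HepG2, none was under 100, and 1 was at 0 in SKHEP1. In total 13 members had at least 10 counts in SKHEP1 and under 3 in HepG2, and 1 had the reverse. Over all genes compared the corresponding shares were 9.29% and 6.87%. In bulk samples, fewer cells that express a gene and less RNA per cell cannot be told apart.

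**Figure D1:**
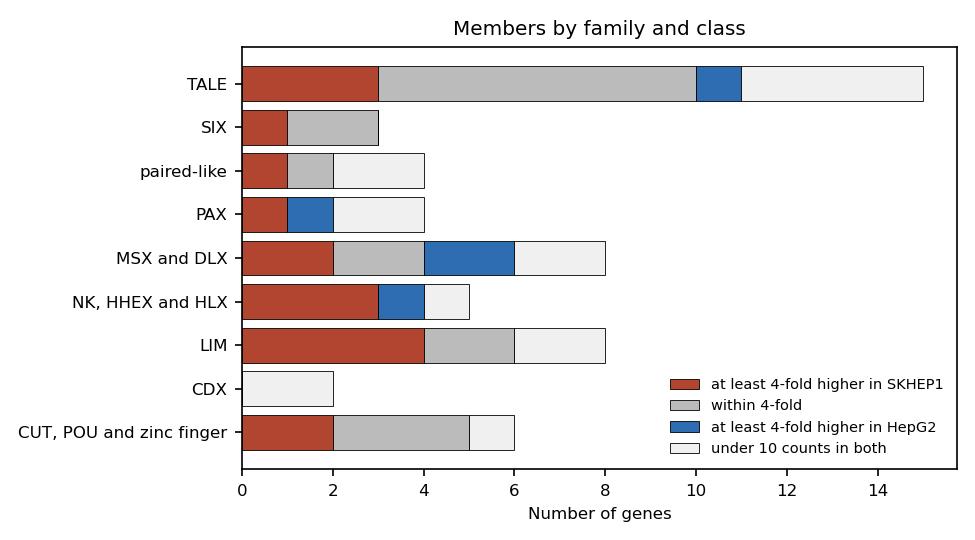
Number of the 55 homeobox genes in each family (horizontal axis) by class: at least 4-fold higher in SKHEP1, within 4-fold, at least 4-fold higher in HepG2, or under 10 counts in both lines. Of the 15 TALE genes, 7 lay within 4-fold, whereas 4 of the 8 LIM genes were higher in SKHEP1 and none in HepG2.

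Promoter sequences were looked up for the members, and 4 are printed as examples of the classes of the comparison. POU3F2 had the largest ratio or bound toward SKHEP1, SIX2 was read in SKHEP1 only, MSX1 was higher in HepG2, and PBX2 was the most abundant member per length in both lines. Each is the 250 bases before the gene's start in RefSeq (GRCh38.p14), 5′ to 3′ on the gene's strand, in a window that holds no annotated exon of GENCODE 29. The windows are chr6:98834324-98834573 on the plus strand for POU3F2, chr2:45009453-45009702 on the minus strand for SIX2, chr4:4859415-4859664 on the plus strand for MSX1 and chr6:32190203-32190452 on the minus strand for PBX2. Capitals mark matches to the motifs named in the next paragraph, on either strand, and matches that touch run together.
POU3F2: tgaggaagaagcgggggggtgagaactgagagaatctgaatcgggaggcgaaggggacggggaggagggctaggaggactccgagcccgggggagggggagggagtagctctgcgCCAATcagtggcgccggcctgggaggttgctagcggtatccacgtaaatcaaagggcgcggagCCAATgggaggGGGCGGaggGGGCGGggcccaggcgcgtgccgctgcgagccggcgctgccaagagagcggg
SIX2: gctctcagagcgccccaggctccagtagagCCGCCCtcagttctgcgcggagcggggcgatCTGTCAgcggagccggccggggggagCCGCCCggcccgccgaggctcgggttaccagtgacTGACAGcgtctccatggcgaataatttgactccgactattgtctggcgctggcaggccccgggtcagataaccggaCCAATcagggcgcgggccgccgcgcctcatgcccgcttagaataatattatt
MSX1: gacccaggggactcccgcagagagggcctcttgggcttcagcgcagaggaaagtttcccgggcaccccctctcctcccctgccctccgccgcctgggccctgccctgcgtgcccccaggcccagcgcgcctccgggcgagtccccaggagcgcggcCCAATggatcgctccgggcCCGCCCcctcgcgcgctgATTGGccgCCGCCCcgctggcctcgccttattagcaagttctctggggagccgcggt
PBX2: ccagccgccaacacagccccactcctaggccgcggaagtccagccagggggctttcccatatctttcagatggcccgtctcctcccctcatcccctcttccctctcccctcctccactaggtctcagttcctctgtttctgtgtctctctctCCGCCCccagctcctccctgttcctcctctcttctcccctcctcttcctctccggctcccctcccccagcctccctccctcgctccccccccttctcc

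Of the 55 members, 45 had an entry, with 78 windows because some have several starts, and windows of 1 gene can overlap. The median number of CpG dinucleotides per window was 21, against 11 in all 35116 windows of the table. The GC box GGGCGG, searched on both strands as was each motif, was in 49 of the 78 windows (62.8%) and in 42.6% of all windows. The CCAAT box, spelled CCAAT, was in 32 (41.0%) against 32.0%. The TATA box, as TATAAA, was in 2 (2.56%) against 10.7%. The homeodomain core TAATTA was in 2 (2.56%) against 4.35%, and the MEIS and TGIF core TGACAG in 8 (10.3%) against 13.0%. Among the printed windows, POU3F2 and MSX1 each hold 2 CCAAT boxes and 2 GC boxes, SIX2 holds 1 CCAAT box, 2 GC boxes and 2 matches to TGACAG, and PBX2 holds 1 GC box and no CCAAT box. A match is a description of these letters and not a bound site.

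Some TALE genes were among the most abundant members in both lines, and 7 of the 11 TALE genes compared lay within 4-fold. Levels between genes are compared on the deposited transcripts-per-million (TPM) scale, which is per length. PBX2, a partner of HOX proteins (ENSG00000204304.7), had 1873 counts and 59.1 TPM in SKHEP1 and 2430 counts and 60.8 TPM in HepG2, a ratio of CPM of 1.18 toward HepG2 (1.11 to 1.26). It was the only member with at least 1000 counts in both libraries, and its expected counts were not whole, which means that RSEM divided some reads between it and other genes. TGIF1, a corepressor in TGF-beta signalling, had 376 and 485 counts, at 27.95 TPM in SKHEP1 and 29.1 in HepG2.

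Of the other 5 TALE genes within 4-fold, 3 leaned to SKHEP1 and 2 to HepG2. PBX3 had 552 counts (22.6 TPM) in SKHEP1 against 228 (9.03 TPM) in HepG2, 2.66-fold higher in SKHEP1 (2.27 to 3.12). MEIS2, which helps keep PBX proteins in the nucleus, had 548 and 287 counts, 2.10-fold higher in SKHEP1 (1.81 to 2.43). PKNOX1, another PBX partner, had 417 and 311 counts, 1.47-fold higher in SKHEP1 (1.27 to 1.71). These 3 genes were read well above the minimum in both lines. TGIF2, a paralogue of TGIF1, went the other way with 595 and 2208 counts (14.8 and 56.2 TPM), 3.38-fold higher in HepG2 (3.09 to 3.71). MEIS1, known from blood stem cells and leukaemia, was low in both at 33 and 73 counts, 2.01-fold higher in HepG2 by CPM (1.32 to 3.14), but 1.73 and 1.99 TPM per length, a log2 ratio of 0.20. Of these 5 genes none passed 4-fold, and the counting intervals of all 5 CPM ratios lay clear of 1.

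The TALE genes past 4-fold were low, with 100 counts or fewer in SKHEP1 and at most 2 in HepG2, apart from IRX3. MEIS3 had 100 counts (6.40 TPM) in SKHEP1 against 2 in HepG2, a ratio of 54.9 (14.8 to 459.5). PBX4 had 18 counts in SKHEP1 against 0 in HepG2, which is higher in SKHEP1 by at least 6.59-fold. So MEIS1, MEIS2 and MEIS3 were spread over both classes, as were PBX2, PBX3 and PBX4. PKNOX2 was at 0 in both libraries.

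**Figure D2:**
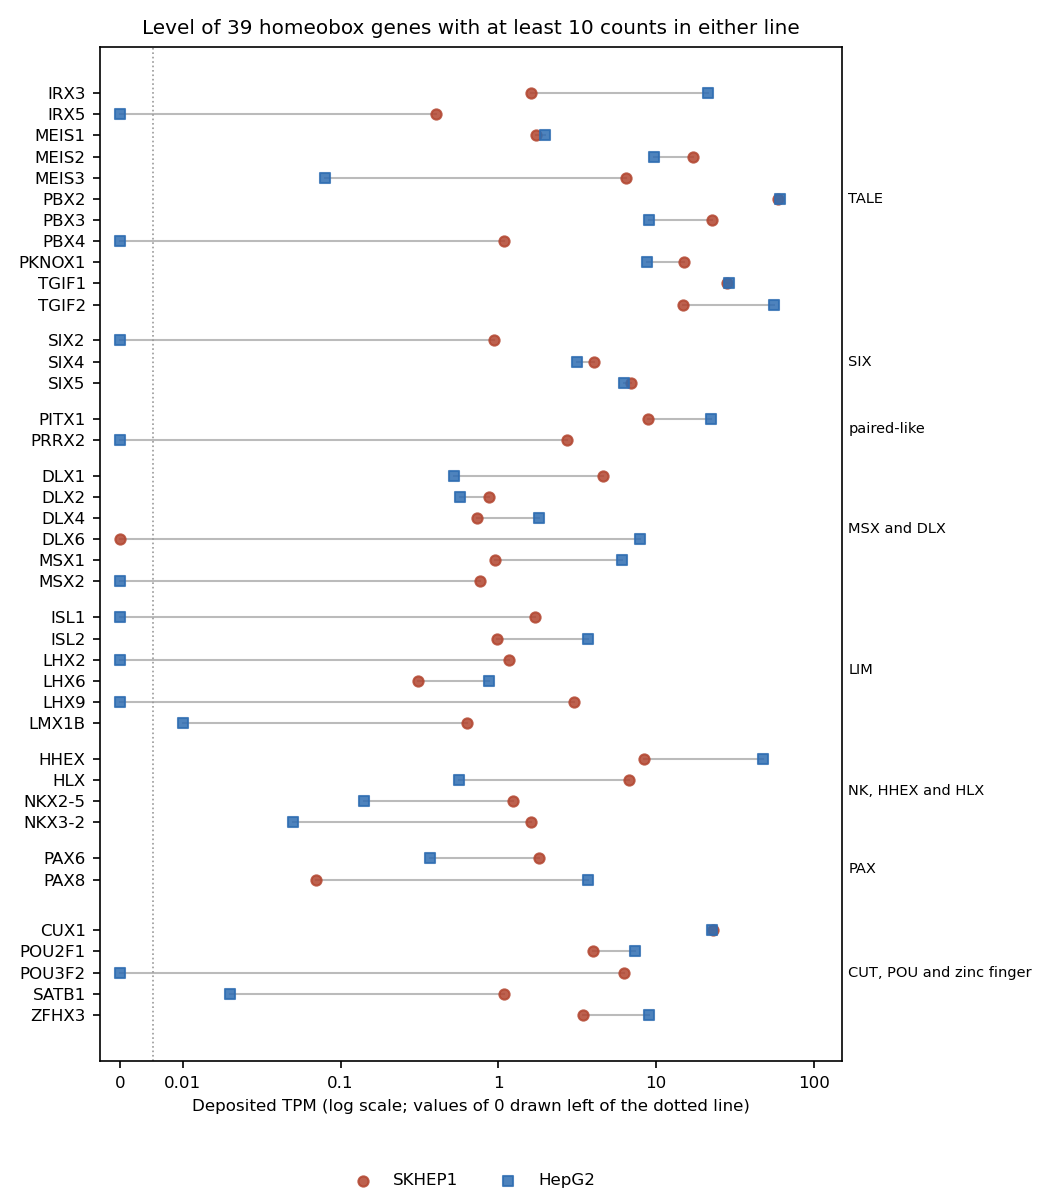
Deposited TPM (horizontal axis, log scale) of the 39 members with at least 10 counts in either line, by family, with circles for SKHEP1 and squares for HepG2, and values of 0 drawn left of the dotted line. PBX2, TGIF1 and CUX1 overlap between the lines, whereas 9 genes have a circle above 0 and a square at 0.

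The Iroquois (IRX) genes, TALE factors that pattern heart, limb and nervous system, lie in 2 clusters, and only the cluster on chromosome 16 had more than 1 count. IRX3 had 35 counts (1.60 TPM) in SKHEP1 against 389 (21.5 TPM) in HepG2, 10.1-fold higher in HepG2 (7.15 to 14.7). Its neighbour IRX5 had 11 counts in SKHEP1 against 0 in HepG2, which is higher in SKHEP1 by at least 4.03-fold, the smallest difference among the members that passed 4-fold, and it did not pass on the TPM scale. The 2 adjacent genes thus stood higher in different lines, with no other coding gene between them. CRNDE, a noncoding gene next to IRX5, had 109 counts in SKHEP1 against 0 in HepG2. On chromosome 5, IRX1 and IRX2 were at 0 in both libraries and IRX4 had 1 count in SKHEP1.

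The DLX genes, which pattern forebrain, jaw and limb, form 3 adjacent pairs, and within the pair of DLX5 and DLX6 a single gene was read. DLX6 had 188 counts (7.87 TPM) in HepG2 against 0 in SKHEP1, at least 57.1-fold higher in HepG2, while DLX5 beside it had 1 count in HepG2 and 0 in SKHEP1. The antisense gene DLX6-AS1, which overlaps DLX6, had 230 counts in HepG2 against 0 in SKHEP1. No source used here gives the strand setting of the counting, and reads of DLX6 and DLX6-AS1 cannot be told apart with certainty.

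The other DLX pairs were read at lower levels. DLX1 had 119 counts (4.63 TPM) in SKHEP1 against 18 (0.52 TPM) in HepG2, 7.26-fold higher in SKHEP1 (4.40 to 12.7), and DLX2 beside it had 25 and 18 counts, with an interval of 0.799 to 2.97 that holds a ratio of 1. DLX1 alone of this pair differed beyond counting error. DLX4 had 13 counts in SKHEP1 against 28 in HepG2, also with an interval (0.983 to 4.13) that holds 1, and DLX3 had 1 and 0. The related MSX genes, targets of BMP signalling in tooth, skull and limb, split between the lines. MSX1 had 21 counts (0.95 TPM) in SKHEP1 against 153 (6.07 TPM) in HepG2, 6.64-fold higher in HepG2 (4.19 to 11.0). MSX2 had 20 counts in SKHEP1 against 0 in HepG2, which is higher in SKHEP1 by at least 7.32-fold.

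**Figure D3:**
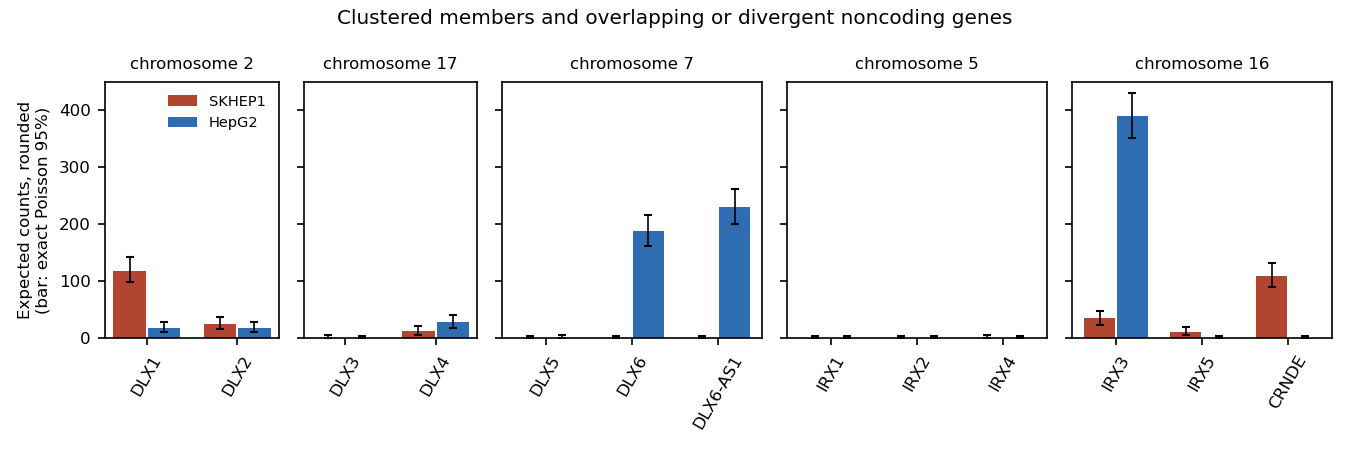
Rounded expected counts (vertical axis) of the clustered DLX and IRX genes and of 2 noncoding neighbours in SKHEP1 and HepG2, with exact Poisson 95% intervals. DLX6 (188 counts) and DLX6-AS1 (230) are read in HepG2 without DLX5, and IRX3 (389) is high in HepG2 while IRX5 (11) and CRNDE (109) are read in SKHEP1.

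LIM homeobox genes, which specify neurons, limb and gonad, were read mainly in SKHEP1. LHX9, a factor of the embryonic gonad, had 132 counts (3.03 TPM) in SKHEP1 against 0 in HepG2, which is higher in SKHEP1 by at least 48.3-fold. ISL1, which marks motor neurons and heart progenitors, had 56 and 0 counts, at least 20.5-fold higher. LMX1B, a gene of the dorsal limb and kidney, had 39 counts in SKHEP1 against 1 in HepG2, a ratio of 42.8 (7.25 to 1734). LHX2 had 20 and 0 counts, at least 7.32-fold higher in SKHEP1. All 4 were low, with the highest at 3.03 TPM.

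The remaining LIM genes were within 4-fold or under the minimum. ISL2 had 21 counts in SKHEP1 against 78 in HepG2, 3.38-fold higher in HepG2 (2.07 to 5.77), and with TGIF2 it was the member nearest to the 4-fold limit among those that did not reach it. LHX6, known from cortical interneurons, had 12 and 40 counts, 3.04-fold higher in HepG2 (1.56 to 6.36). So ISL1 and ISL2 leaned to different lines. LHX1 and LHX4 had 5 and 6 counts in SKHEP1 and 1 each in HepG2.

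POU3F2, a factor of neurons and melanoma also called BRN2, had the largest ratio or bound toward SKHEP1. It had 308 counts (6.22 TPM) in SKHEP1 against 0 in HepG2, at least 113-fold higher against the floor. POU2F1, the broadly expressed OCT1, had 626 and 1356 counts (3.97 and 7.30 TPM), 1.97-fold higher in HepG2 (1.79 to 2.17). The 2 POU genes thus leaned to different lines. SATB1, a chromatin organiser known from T cells, had 32 counts in SKHEP1 against 1 in HepG2, a ratio of 35.1 (5.87 to 1430.5). ZFHX3 had 665 and 1984 counts (3.45 and 9.03 TPM), 2.72-fold higher in HepG2 (2.49 to 2.97). CUX2 had 1 count in SKHEP1 and 0 in HepG2.

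HHEX was the most abundant of the genes higher in HepG2. It had 290 counts (8.43 TPM) in SKHEP1 against 1554 (47.5 TPM) in HepG2, 4.88-fold higher in HepG2 (4.30 to 5.55), so it was read in both lines. HLX, a homeobox gene of the mesenchyme of gut and liver, went the other way with 106 counts (6.70 TPM) and 12 (0.56 TPM), 9.70-fold higher in SKHEP1 (5.33 to 19.4). Both NK genes past the minimum were higher in SKHEP1. NKX3-2, a gene of cartilage and the axial skeleton, had 53 counts in SKHEP1 against 2 in HepG2, a ratio of 29.1 (7.67 to 246). NKX2-5, a heart factor, had 22 and 3 counts, a ratio of 8.05 (2.42 to 42.0). NKX2-8 had 3 counts in SKHEP1 against 0 in HepG2.

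PAX genes carry a paired domain and take part in eye, kidney, thyroid and muscle development, and the 2 that were read stood higher in different lines. PAX8, a factor of thyroid and kidney, had 3 counts in SKHEP1 against 113 (3.72 TPM) in HepG2, a ratio of 34.3 toward HepG2 (11.4 to 169). PAX6, the eye factor, had 26 counts (1.82 TPM) in SKHEP1 against 5 (0.37 TPM) in HepG2, a ratio of 5.71 toward SKHEP1 (2.16 to 19.0). PAX3 was at 0 in both libraries, and PAX2 had 2 counts in SKHEP1 against 1 in HepG2.

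Among the sine oculis genes (SIX2, SIX4 and SIX5) and the paired-like genes, some were read in SKHEP1 only and others in both lines. SIX2, which maintains nephron progenitors, had 24 counts (0.94 TPM) in SKHEP1 against 0 in HepG2, which is higher in SKHEP1 by at least 8.78-fold. SIX5 was near equal, with 185 counts in SKHEP1 against 207 in HepG2 and an interval of 0.832 to 1.25 for the ratio, and SIX4 had 223 and 160 counts, 1.53-fold higher in SKHEP1 (1.24 to 1.89). Of these 3 genes SIX2 alone had no reads in a line. PITX1, which specifies the hindlimb, had 149 counts (8.95 TPM) in SKHEP1 against 411 (22.3 TPM) in HepG2, 2.51-fold higher in HepG2 (2.08 to 3.05). PRRX2, a mesenchymal gene, had 36 counts (2.72 TPM) in SKHEP1 against 0 in HepG2, which is higher in SKHEP1 by at least 13.2-fold, whereas its paralogue PRRX1 had 1 count in SKHEP1 and 0 in HepG2. PITX3 had 5 and 1 counts. The CDX genes, which pattern the hindgut, were not read beyond 6 counts: CDX2 had 6 in SKHEP1 and 1 in HepG2, and CDX1 was at 0 in both.

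**Figure D4:**
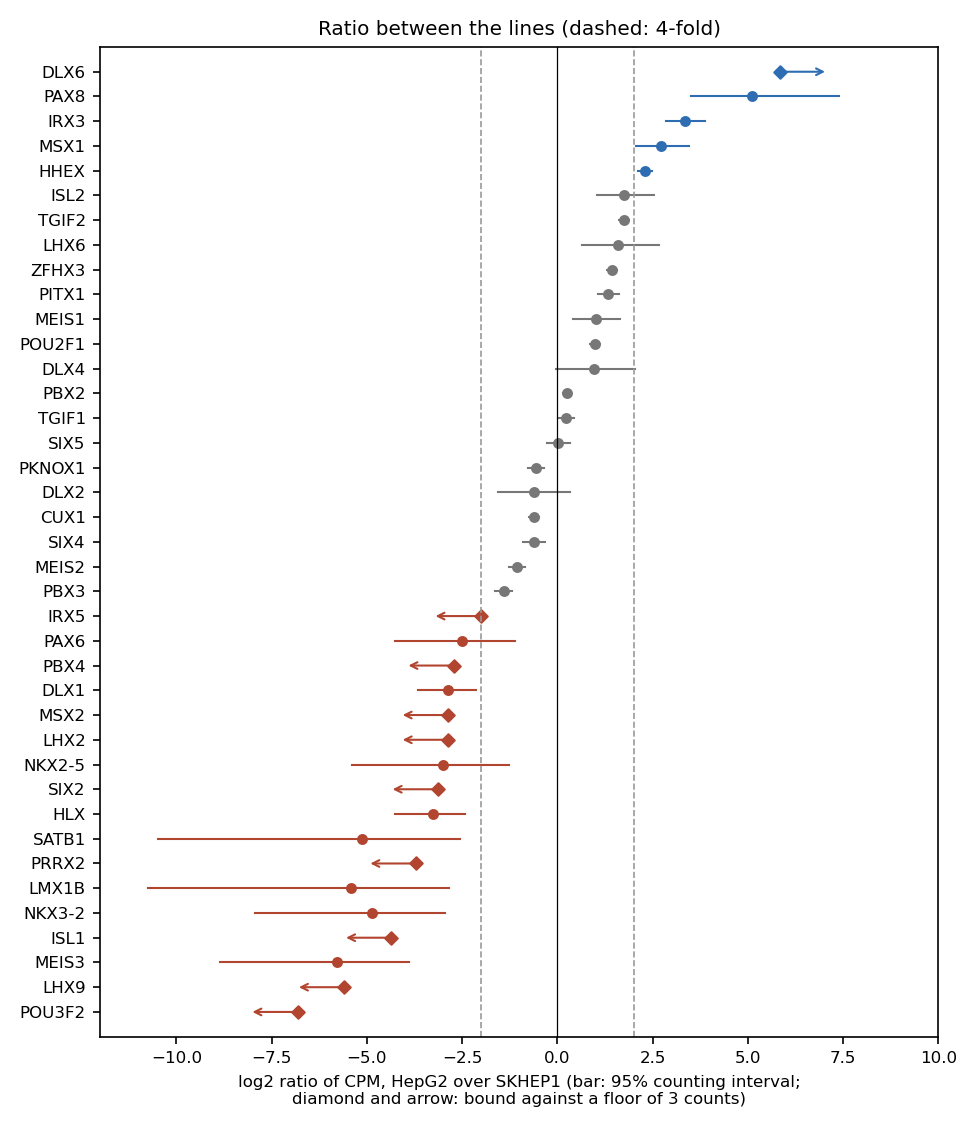
log2 ratio of CPM, HepG2 over SKHEP1, for the 39 members compared (points with 95% counting intervals, or diamonds with arrows for bounds against a floor of 3 counts where a library was at 0), with dashed lines at 4-fold. The 5 genes to the right of the limit and the 17 to the left are coloured. Of the intervals drawn for these, those of NKX2-5 and PAX6 cross the limit. Among the genes within 4-fold, the intervals of ISL2, LHX6 and DLX4 cross it.

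Of the 22 members past 4-fold, 19 also had their nearer 95% bound past 4-fold, 14 toward SKHEP1 and 5 toward HepG2. Over all genes compared, 13.1% and 9.87% did so. The exceptions were NKX2-5, PAX6 and IRX5, whose bounds lay at 2.42, 2.16 and 2.76. The 17 genes within 4-fold leaned either way, 11 toward HepG2 and 6 toward SKHEP1. Among them, the intervals of SIX5, DLX4 and DLX2 included equal levels, and the direction of SIX5 reversed by library totals, TPM and FPKM. For genes at 0 in HepG2, the bound on the TPM scale uses the floor of 3 counts over the length listed for HepG2. No HepG2 read informs that length, so a shift of the bound can come from it alone. LHX9, for example, is listed at 3615 bases in SKHEP1 and 2182 in HepG2. With this floor several log2 bounds toward SKHEP1 were smaller than by CPM, though still past 4-fold. LHX9 went from -5.59 to -4.86, ISL1 from -4.36 to -3.58 and MSX2 from -2.87 to -2.19. PBX4 went from -2.72 to -2.21 and LHX2 from -2.87 to -2.79. IRX5 fell under 4-fold, and the bounds of SIX2, PRRX2 and POU3F2 were slightly larger. The log2 ratio of PAX8 went from 5.10 to 5.73.

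The deposited tables also give a transcript length per gene, weighted by the estimated isoform mix. This readout was not used to choose the genes, and it could be compared for the 13 members with at least 100 counts in both libraries. CUX1, SIX4 and MEIS2 differed at least 1.2-fold, a limit chosen after the values were seen, and 7.42% of all 9196 genes with that many counts did so. The CUX1 locus is known to encode both the CUT homeobox factor and, by splicing, a Golgi protein without a homeodomain. Its weighted length was 4622 bases in SKHEP1 and 3053 in HepG2, 1.51-fold longer in SKHEP1, over 20 listed transcripts. With 1294 and 931 counts CUX1 was 1.53-fold higher in SKHEP1 (1.40 to 1.66) by CPM, but per length it stood at 22.95 TPM in SKHEP1 and 22.55 in HepG2. Which transcripts were read is not given in the gene tables.

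For the other 2 genes the shift was smaller. SIX4 was 4522 bases in SKHEP1 and 3700 in HepG2, and MEIS2 2705 and 2251, so both were longer in SKHEP1. HHEX had 2895 and 2458 bases, within the limit, and its ratio was 5.64 by TPM against 4.88 by CPM. The error of these lengths is not known, and no count interval covers it.

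**Figure D5:**
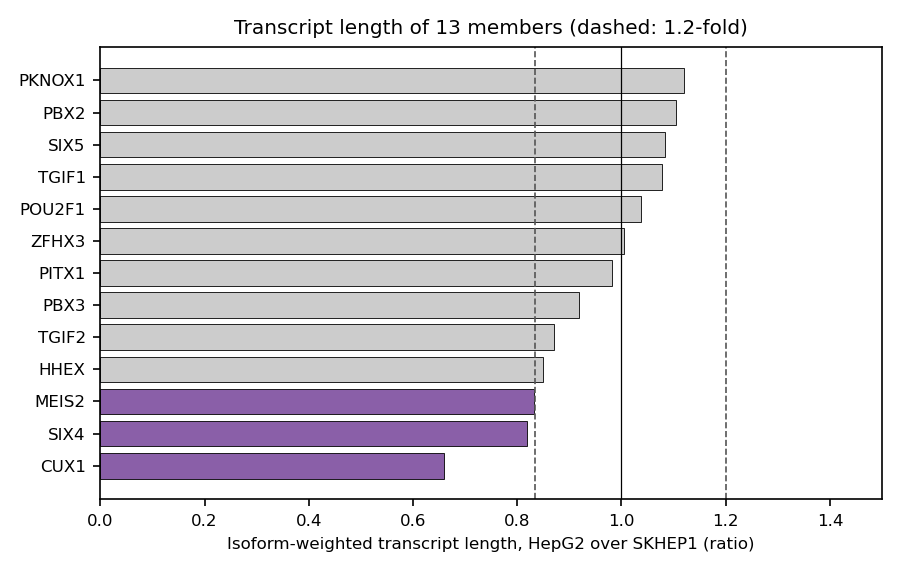
Ratio of the isoform-weighted transcript length, HepG2 over SKHEP1 (horizontal axis), for the 13 members with at least 100 counts in both lines, with dashed lines at 1.2-fold. CUX1 at 0.661, SIX4 at 0.818 and MEIS2 at 0.832 lie past the limit, all longer in SKHEP1.

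The remaining homeobox genes outside the HOX clusters, taken from a textbook list of 124 of which 123 were matched, were compared in the same way. Of the 123, 81 were under 10 counts in both libraries, as were 42365 of all 57820 genes. Of the rest, 17 passed 4-fold toward SKHEP1 and 8 toward HepG2. These are 40.5% and 19.0% of the 42 compared, beside 16.5% and 13.0% of all genes compared. The other 17 were within 4-fold. Of the 42, 14 had at least 10 counts in SKHEP1 and under 3 in HepG2, and 3 had the reverse. Over all genes compared these shares were 9.29% and 6.87%. As with the members, a gene that reaches the minimum only through the line in which it is high is more likely to pass 4-fold. The median log2 ratio over the 42 compared was -0.98. ZEB2, a repressor of epithelial genes, had 1785 counts in SKHEP1 against 0 in HepG2, at least 653-fold higher. POU2F2, or OCT2, a factor of B cells, had 1521 and 9 counts, a ratio of 186 (97.5 to 407). ZFHX4 had 496 and 3 counts and TSHZ3 264 and 0. In these 4 genes HepG2 had 9 counts or fewer. In HepG2 the hepatocyte factor PROX1, at 0 in SKHEP1, had 3007 counts, and MIXL1, a mesendoderm gene, had 475 against 7 in SKHEP1.

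Genes of proteins known to bind homeodomain factors, where they reached 10 counts in a library, lay within 4-fold or were higher in SKHEP1. Of 24 listed cofactors 23 were matched, RNF12 being an older symbol of RLIM, and of the 15 with at least 10 counts 5 stood at least 4-fold higher in SKHEP1, 0 did in HepG2 and the other 10 were within 4-fold. Over all genes compared the shares past 4-fold were 16.5% and 13.0%. Of the 15 cofactors, 4 had under 3 counts in HepG2, so the limit of reaching the minimum through 1 line applies here too. The median log2 ratio of the 15 cofactors was -0.62. EYA4, a coactivator of SIX2 and its relatives, had 322 counts in SKHEP1 against 0 in HepG2, and SSBP2, which joins LIM complexes, 125 and 0. The corepressor TLE4 had 789 and 52 counts, 16.7-fold higher in SKHEP1 (12.6 to 22.5). CTBP2, a corepressor, had 1696 and 2 counts, a ratio of 931 (257 to 7694), whereas CTBP1 had 1239 and 1860. The corepressors TLE1, with 1014 and 1581 counts, and TLE3, with 160 and 295, also leaned to HepG2 within 4-fold. The LIM adaptor LDB1 had 675 counts in SKHEP1 against 579 in HepG2.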

How the data were processed

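The data were 2 RNA-seq gene tables, 1 library each of SKHEP1 and HepG2, grouped by the cell line label. Per the labels' protocols, stranded mRNA libraries were made from column-purified RNA. The submitters' processing notes name hg19 as the build, and STAR, RSEM, cutadapt and DESeq2 as tools. Not given in the sources used here are versions, annotation and strand setting. Per the file headers, the deposited RSEM tables give expected counts, TPM, FPKM and transcript lengths. Expected counts were whole (within 0.005) for 95.2% of genes in SKHEP1 and 95.0% in HepG2, and for all but 3 members (PBX2, TGIF2 and LMX1B).

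Counts were rounded and scaled to CPM of the TMM effective library size (edgeR 4.0.16, R 4.3.3). A gene entered the comparison if it reached 10 counts in SKHEP1 or HepG2, and a 4-fold difference was the limit for a call. Counts under 3 were set to 3 for the call; bounds written "at least" use that floor and are not 95% limits. Intervals are exact Poisson (levels) and exact conditional Clopper-Pearson (ratios). No test was run. The calls and intervals were tried on counts simulated with counting error only, which cannot speak to variation between replicates or from PCR. Other software was matplotlib 3.10.9, scipy 1.17.1, pandas 2.3.3 and numpy 2.4.6 under Python 3.11.15. Promoters and neighbours come from RefSeq (GRCh38.p14), another build than the files', so no coordinate of theirs is compared with the files.

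Members, lists and limits were chosen with earlier results of these data known. Members past 4-fold or with 1000 counts in both lines were to be given in full. Of the other lists, up to 6 genes past 4-fold with at least 100 counts were to be named, and up to 3 furthest in the other direction; LDB1 was added after its values were seen. Of the genes so chosen, 1 is not reported here. Proteins, also planned, are not printed. Of 11 endothelial markers, PECAM1 was not analysed here. Blood markers (5 genes) summed to 2.23 CPM in SKHEP1 and 2.84 in HepG2, and epithelial markers (4 genes) to 4771 and 2384, nearly all from KRT8 and KRT18, whereas CDH1 (0 and 439 counts) and EPCAM (32 and 3163) were higher in HepG2. Alternatives were other scalings (library totals, DESeq2 1.42.0 size factors), deposited TPM and FPKM, a prior count of 2, minimums of 50 and 1 counts, limits of 2-fold and 8-fold, the nearer 95% bound, and unrounded counts.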

Additional observations from a re-analysis of the deposited data

How the results depend on the processing

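No paired analysis was possible because each line has 1 library. Of the 39 members compared, none past 4-fold changed direction under the 6 alternatives of scaling, unit, prior count and rounding. IRX5 alone lost its 4-fold call, with a log2 bound of -1.97 with DESeq2 size factors, -1.62 by TPM and -1.64 by FPKM. The bounds by TPM and FPKM use the length listed for HepG2, which no IRX5 read informs. The members higher in SKHEP1, 17 with the settings of the report, were 7 with a minimum of 50 counts, where 26 genes were compared, and 11 with a limit of 8-fold, beside 13.9% and 11.5% of all genes. Those higher in HepG2, 5, were 11 with a limit of 2-fold and 3 with 8-fold, beside 23.4% and 8.14% of all genes. The median log2 ratio of the 39 members compared, -0.61, was -0.78 by TPM and -0.77 by FPKM. It reversed to 0.13 with a minimum of 50 counts, which leaves out genes read only at low counts.

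The other homeobox genes higher in SKHEP1, 17, were 10 of 30 compared with a minimum of 50 counts, beside 13.9% of all genes. The median log2 ratio of all the other homeobox genes compared, -0.98, was -1.23 by TPM, -1.22 by FPKM, -0.88 with a minimum of 50 counts and -0.16 with a minimum of 1. The cofactors' median of -0.62 was -0.90 by TPM, -0.89 by FPKM, -0.49 with a minimum of 50 counts and -0.30 with a minimum of 1. Members whose weighted length differed were 3, or 7 with a limit of 1.1-fold and 1 with 1.5-fold (21.0% and 0.870% of all genes), alternatives added after the values were seen. Depth limits the genes under 10 counts: the exact 95% upper limit of a count of 0 is 0.183 CPM in SKHEP1 and 0.166 in HepG2, slightly above the floor of 3 counts used for bounds.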
